A study of Mus musculus with 8 samples.

Results

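Insr, Igf1r, Lrp1, Lrp6, Sema4a, Sema4d, Sort1, Nrp1, Ptprk and Atp6ap1 encode receptors, semaphorins and sorting or pump proteins that were listed as cleaved by FURIN-type convertases. These 10 genes were picked by name from a count table of 55573 mouse genes, with the Notch, ADAM, integrin and TGF-beta genes left out. The RNA came from naive CD8+ T cells, cytotoxic lymphocytes that have not yet met antigen, which were sorted by flow cytometry from spleen and lymph nodes of male C57BL/6 mice after magnetic enrichment for CD8a. Of the 8 libraries, 5 were labelled Furin KO (1 at 7 weeks of age, 4 at 8 weeks) and 3 were labelled WT (1 at 7 weeks, 2 at 8 weeks). The sources used here do not state which part of Furin was deleted, which promoter drove the deletion, what the controls carried, or whether the libraries are from different mice. The spread behind every p-value is that among these samples, and part of it may be technical.

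FURIN is a serine protease of the trans-Golgi network, the cell surface and endosomes. It cuts precursor proteins after clusters of basic residues, typically arginine, any residue, lysine or arginine, then arginine. The insulin and IGF1 receptors are made as single chains that this cut divides into the ligand-binding alpha chain and the kinase-bearing beta chain, and LRP1, sortilin (Sort1) and PTPRK are cut or trimmed in a similar way. Because the cut acts on proteins, transcript counts show whether a substrate is made by the cell and whether its RNA differs between genotypes, not whether it was processed.

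The codons for that basic run were searched, in frame, in the longest complete coding sequence of each gene in GENCODE M21 on GRCm38. They were present in 5 of the 10 genes, against 24.2% of 21504 coding genes, and all 10 coding sequences, at 463 to 4545 codons, are longer than the median of 396 codons over those genes. The 10 genes were listed for such cleavage, so a share above that of all coding genes is in part built into the choice. Insr, Igf1r and Sort1 had 1 match each, and Lrp1 and Ptprk had 2 each. Lrp6, Sema4a, Sema4d, Nrp1 and Atp6ap1 had no match to this strict form, which says only that these letters are not there. The matches are shown because they are the stretches of message that encode the basic run, and not every one need be within reach of the protease: the later match of Ptprk is in the part that encodes the cytoplasmic phosphatase region. Capitals mark the 12 bases of the 4 matching codons, with 24 bases of coding sequence on each side.
Insr: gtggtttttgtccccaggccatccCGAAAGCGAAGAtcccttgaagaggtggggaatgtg
Igf1r: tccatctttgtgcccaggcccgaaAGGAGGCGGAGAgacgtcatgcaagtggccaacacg
Sort1: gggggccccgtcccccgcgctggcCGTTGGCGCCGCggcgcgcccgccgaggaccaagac
Ptprk, first match: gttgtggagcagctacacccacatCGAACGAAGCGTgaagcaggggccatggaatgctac
Ptprk, later match: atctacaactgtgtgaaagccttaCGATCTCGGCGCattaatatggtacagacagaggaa
Lrp1, first match: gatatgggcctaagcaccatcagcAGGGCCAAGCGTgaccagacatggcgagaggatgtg
Lrp1, later match: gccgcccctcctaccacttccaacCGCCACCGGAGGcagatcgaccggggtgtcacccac

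The Insr match lies in exon 11 of that transcript at chr8:3174870-3174881 (GRCm38, minus strand), codons 749 to 752 of 1372. That of Igf1r lies in exon 11 at chr7:68193354-68193365 (plus strand), codons 738 to 741 of 1369, so the matches of these related receptors sit at 54.6% and 53.9% of their coding sequences. The Sort1 match is near the start of the protein, in exon 1 at chr3:108284354-108284365 (plus strand), codons 72 to 75 of 858. The Ptprk matches lie in exon 12 at chr10:28492951-28492962 and exon 27 at chr10:28585663-28585674 (plus strand). Those of Lrp1 lie in exon 36 at chr10:127568975-127568986 and exon 76 at chr10:127544449-127544460 (minus strand).

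Coordinates of the whole genes are those of GENCODE M21 on GRCm38. The insulin-type receptors are Insr (ENSMUSG00000005534) at chr8:3122061-3279617 (minus strand) and Igf1r (ENSMUSG00000005533) at chr7:67952827-68233668 (plus strand). The LRP receptors are Lrp1 (ENSMUSG00000040249) at chr10:127538161-127621148 (minus strand) and Lrp6 (ENSMUSG00000030201) at chr6:134446476-134566965 (minus strand). The semaphorins are Sema4a (ENSMUSG00000028064) at chr3:88435959-88461182 (minus strand) and Sema4d (ENSMUSG00000021451) at chr13:51685529-51793747 (minus strand), and the neuropilin is Nrp1 (ENSMUSG00000025810) at chr8:128358604-128503363 (plus strand). The sorting receptor is Sort1 (ENSMUSG00000068747) at chr3:108284082-108361511 (plus strand), the phosphatase is Ptprk (ENSMUSG00000019889) at chr10:28074820-28597397 (plus strand) and the pump subunit is Atp6ap1 (ENSMUSG00000019087) at chrX:74297097-74304721 (plus strand).

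Total counts were 11308220 in Furin KO replicate 5 and 18641969 to 21040431 in the other 4 Furin KO libraries, against 14463450 to 19159021 in the WT libraries. The libraries were those of CD8 T cells: 7 of 7 listed CD8 T cell markers were at or above 1 CPM in at least 1 library (CPM is the count relative to the library size after TMM scaling, which corrects for differences in RNA composition), with a summed level of 7894 to 9267 CPM in Furin KO and 7579 to 8768 CPM in WT. The defining markers Ms4a1 (B cells), Siglech (plasmacytoid dendritic cells), Xcr1 (dendritic cells), Csf1r (macrophages), Ncr1 (NK cells) and Pf4 (platelets) were at 0 counts in every library, but other genes of the same lists were detected. Ccr9, of the plasmacytoid dendritic cell list, had 196 to 275 CPM in Furin KO and 187 to 255 CPM in WT, and Tcf4 of that list had up to 4.48 CPM. Eomes, of the NK cell list, had 33.6 to 51.4 CPM in Furin KO and 39.5 to 40.4 CPM in WT, and Pecam1, of the endothelial list, had 216 to 252 CPM in Furin KO and 214 to 227 CPM in WT. Cd68 (macrophages), Itga2b (platelets) and Cd79a (B cells) reached at most 12.5, 8.43 and 1.34 CPM. The libraries are grouped in 3 runs of consecutive titles, each with both genotypes. No label marks these runs: the grouping came from an earlier clustering of the same libraries by their counts. The first holds Furin KO replicate 1 and WT replicate 1 (both 7 weeks), the second Furin KO replicates 2 and 3 with WT replicate 2, and the third Furin KO replicates 4 and 5 with WT replicate 3. Fos, an immediate early gene, was at 85.8 to 204 CPM in the second run and 801 to 1075 CPM in the other libraries. In the deposited table the column of Furin KO replicate 4 follows the 3 WT columns directly and precedes the other Furin KO columns, out of title order, and its genotype label was used.

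The targeted gene, Furin, had 63.5, 86.4, 62.2, 58.0 and 76.6 CPM in Furin KO replicates 1 to 5, against 57.0, 66.8 and 66.9 CPM in WT replicates 1 to 3. The groups overlapped, and 0 of the 5 Furin KO libraries lay below all WT libraries (log2 fold change 0.12, 95% interval -0.15 to 0.40; exact two-sided permutation p = 0.5). Counts over the whole gene cannot show a missing exon, so this does not check the labels, and every direction below is between libraries as labelled. The antisense gene Gm44851 overlaps 118 bases of Furin exons, and the strand setting of the counting is not given in the sources used here.

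None of the 10 genes passed a test between Furin KO and WT. 7 of them had enough counts to be tested, and 0 of these 7 passed edgeR's quasi-likelihood test (Benjamini-Hochberg adjusted p under 0.05 over 12500 genes), where 0.032% of all genes tested did (0.024% higher and 0.008% lower in Furin KO). 0 of the 7 had an unadjusted p under 0.05, against 3.21% of all genes tested, and 0 were called by DESeq2 (which called 0.111% of genes, 0.0949% higher and 0.0158% lower in Furin KO) or limma-voom. Their log2 fold changes, Furin KO over WT, lay between -0.03 and 0.14, with a median of 0.09 beside 0.00 (-0.000682) over all genes tested. Of the 7, 6 were above 0 and 1 below, where 49.8% of all genes tested were above 0. In 0 of the 7 were the groups apart, against 2.9% of genes tested. Leaving aside Ptprk, the 95% intervals of the other 6 reached no lower than 0.829-fold (Insr) and no higher than 1.34-fold (Igf1r).

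**Figure D1:**
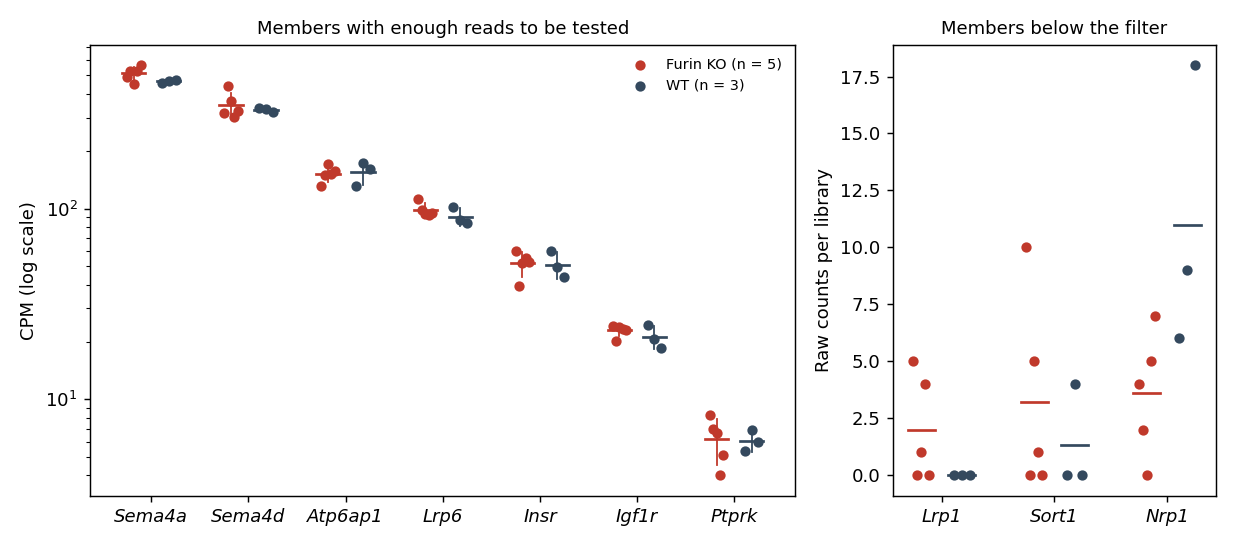
Levels of the 10 genes in each library, with Furin KO (n = 5) left of WT (n = 3) at each gene. The left panel shows the 7 tested genes in CPM on a log scale, with lines for the mean and ± 1 SD, and the right panel shows raw counts of the 3 genes below the filter, with lines for the mean. The groups overlap at every gene, and Lrp1, Sort1 and Nrp1 have at most 18 counts in any library.

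Sema4a and Sema4d, membrane semaphorins of immune cells, had the highest CPM of the set. Sema4a binds plexins and, in the mouse, TIM-2. It had 492.8, 524, 451, 525 and 566 CPM in Furin KO replicates 1 to 5, against 456, 468 and 472 CPM in WT. 4 of the 5 Furin KO libraries lay above all WT libraries, and Furin KO replicate 3 lay below all of them. The means were 512 ± 42.8 CPM (SD, n = 5) in Furin KO and 465 ± 8.85 CPM (n = 3) in WT, a log2 fold change of 0.14 (SE 0.09, 95% interval -0.05 to 0.33, edgeR adjusted p = 0.9998; exact two-sided permutation p = 0.125). This was the lowest permutation p of the 7, and the smallest the design allows is 0.0179. The annotated miRNA gene Mir7011 overlaps 73 bases of Sema4a exon sequence on the same strand.

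Sema4d (CD100), which is abundant on resting T cells and signals through plexin B1 and CD72, had 319, 438, 369, 301 and 325 CPM in Furin KO, against 335, 332 and 321 CPM in WT. Both Furin KO libraries of the second run (replicates 2 and 3, the run low in Fos) were above all WT libraries, and replicates 1 and 4 were below all of them. The SD was 54.9 CPM in Furin KO and 7.36 CPM in WT. The log2 fold change was 0.09 (SE 0.11, 95% interval -0.15 to 0.32, edgeR adjusted p = 0.9998; exact permutation p = 0.696), and it was -0.00164 without Furin KO replicate 2.

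Nrp1 (neuropilin-1), a co-receptor for class 3 semaphorins and VEGF that is known from regulatory T cells and plasmacytoid dendritic cells, was close to absent. Furin KO replicates 1 to 5 had 4, 2, 0, 5 and 7 counts, against 6, 9 and 18 counts in WT replicates 1 to 3. 4 of the 5 Furin KO libraries were below all WT libraries, and replicate 5 (0.615 CPM) lay between WT values of 0.470 and 1.01 CPM. The means were 0.229 ± 0.235 CPM (SD, n = 5) in Furin KO and 0.631 ± 0.331 CPM (n = 3) in WT, with an exact two-sided permutation p of 0.0893. In each of the 3 runs every Furin KO library was below the WT library, with log2 ratios of -1.09, -3.29 and -1.25 from counts too low for the filter. A mean difference of the same sign in all 3 runs, a looser pattern, was seen in 27.8% of all genes tested. The annotated miRNA gene Mir1903 overlaps 80 bases of Nrp1 exons on the same strand. Of the CD4 and regulatory T cell markers, 3 of 5 reached 1 CPM and 0 were at 0 in all libraries. The summed level of the 5 markers was 16.7 to 27.6 CPM in Furin KO and 19.96 to 30.5 CPM in WT. Cd4 and Zbtb7b reached at most 0.892 and 0.412 CPM in any library, and Ikzf2 and Tnfrsf4 at most 14.6 and 14.8 CPM. Foxp3 had 0 to 2.28 CPM in Furin KO and 1.97 to 2.14 CPM in WT. The part of CD4 and regulatory T cells in the Nrp1 counts was not tested. In bulk samples fewer cells of a type and less RNA per cell cannot be told apart.

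Insr and Igf1r encode the receptor kinases for insulin and IGF1. Insr had 59.7, 39.2, 51.9, 55.3 and 52.5 CPM in Furin KO, against 59.7, 49.2 and 43.7 CPM in WT. Furin KO replicate 2 was the lowest of the 8 libraries, and the others lay within the WT range. The log2 fold change was 0.02 (SE 0.14, 95% interval -0.27 to 0.32, edgeR adjusted p = 0.9998; exact permutation p = 0.911). Igf1r had 24.2, 20.2, 23.9, 23.4 and 23.2 CPM in Furin KO, against 24.5, 20.7 and 18.6 CPM in WT, and all 5 Furin KO libraries lay within the WT range. Its log2 fold change was 0.11 (SE 0.14, 95% interval -0.19 to 0.42, edgeR adjusted p = 0.9998; exact permutation p = 0.375). Per kilobase of exon, Insr exceeded Igf1r in 8 of 8 libraries, by 2.74 ± 0.245 times (SD, n = 5) in Furin KO and 2.92 ± 0.0536 times (n = 3) in WT.

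Lrp6, a co-receptor for Wnt ligands beside the Frizzled receptors, had 113, 98.0, 93.8, 92.7 and 94.8 CPM in Furin KO, against 102, 86.8 and 83.7 CPM in WT. Furin KO replicate 1 was the highest library, and the other 4 Furin KO libraries lay between the WT values of 86.8 and 102 CPM. The means were 98.4 ± 8.16 CPM (SD, n = 5) in Furin KO and 90.8 ± 9.79 CPM (n = 3) in WT, with a log2 fold change of 0.12 (SE 0.10, 95% interval -0.10 to 0.34, edgeR adjusted p = 0.9998; exact permutation p = 0.25). Lrp1, a large endocytic receptor for apoE, alpha-2-macroglobulin and protease complexes, had 5, 0, 1, 4 and 0 counts in Furin KO and 0 counts in each WT library. The WT counts allow a level of up to 0.0582 CPM over the group (3 counts; counting error only), and the Furin KO mean was 0.0973 ± 0.1125 CPM (SD, n = 5; exact permutation p = 0.286). No difference in Lrp1 was detectable at this depth.

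Ptprk, a receptor-type tyrosine phosphatase that mediates homophilic cell contact, was low. It had 8.29, 6.99, 6.68, 4.002 and 5.10 CPM in Furin KO, against 5.35, 6.89 and 5.96 CPM in WT. Furin KO libraries made up both the top and the bottom of the range, 2 above and 2 below all WT libraries. Its log2 fold change of 0.04 had the widest interval of the 7, -0.55 to 0.62 (0.685- to 1.53-fold; SE 0.28, edgeR adjusted p = 0.9998; exact permutation p = 1.0), from 58 to 171 counts per library.

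Sort1 (sortilin), a VPS10-domain receptor that carries cargo between the Golgi and lysosomes, had 10, 0, 5, 1 and 0 counts in Furin KO, against 0, 4 and 0 counts in WT (exact permutation p = 0.5). The antisense gene Gm12523 overlaps 338 bases of its exons, and the strand setting of the counting is not given in the sources used here, so even these few reads are uncertain. Atp6ap1 (Ac45), an accessory subunit of the vacuolar proton pump that acidifies the Golgi and lysosomes, had 131, 149.7, 171, 152 and 158 CPM in Furin KO, against 131, 173 and 162 CPM in WT. All 5 Furin KO libraries lay within the WT range. It was the 1 tested gene of the set with a fold change below 0, with a log2 fold change of -0.03 (SE 0.11, 95% interval -0.26 to 0.20, edgeR adjusted p = 0.9998; exact permutation p = 0.857).

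**Figure D2:**
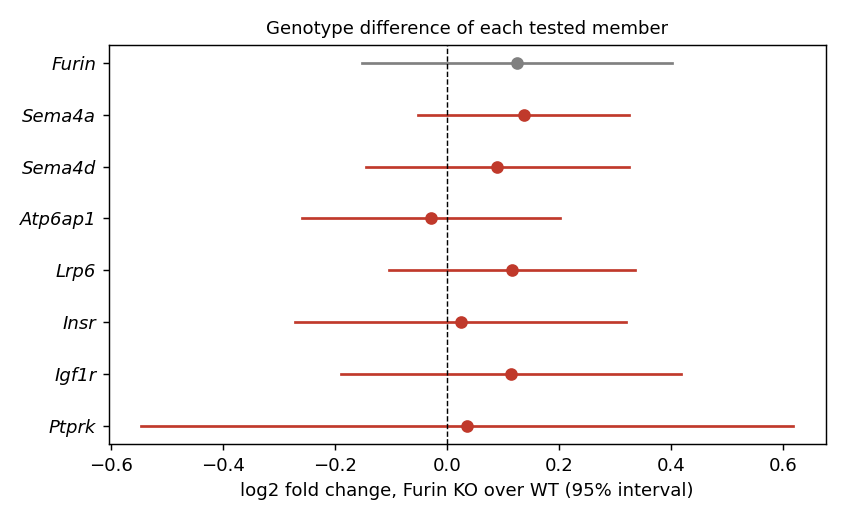
Log2 fold change, Furin KO over WT (x axis), of Furin (grey) and the 7 tested genes of the set (red), as points with 95% intervals from edgeR. Every interval crosses 0, from the narrow one of Sema4a (-0.05 to 0.33) to the wide one of Ptprk (-0.55 to 0.62).

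The levels spanned a wide range once divided by length. As CPM per kilobase of the union of exons, Sema4a stood at 94.7 ± 7.92 (SD, n = 5) in Furin KO and 86.1 ± 1.64 (n = 3) in WT. Atp6ap1 stood at 50.3 ± 4.73 and Sema4d at 45.6 ± 7.15 CPM per kilobase in Furin KO, against 51.3 ± 7.28 and 42.9 ± 0.958 CPM per kilobase in WT. Atp6ap1 exceeded Sema4d in 6 of 8 libraries and their ranges overlap, so these neighbours are not separated; by the longest transcript in place of the union of exons the order of the means turned, at 76.4 for Sema4d and 70.1 for Atp6ap1 over all libraries. Below them came Lrp6 at 6.99 ± 0.657, Insr at 3.74 ± 0.527, Igf1r at 1.33 ± 0.131 and Ptprk at 0.462 ± 0.100 CPM per kilobase (SD over all 8 libraries). Each of these lay below its upper neighbour in 8 of 8 libraries, with ranges apart. Nrp1, Sort1 and Lrp1, at 0.0388, 0.0167 and 0.00343 CPM per kilobase over all libraries, were not separated from each other. In both groups Sema4a, Atp6ap1 and Sema4d were the main transcripts of the set per kilobase.

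Within the 3 runs of titles, each too small for a test, the differences between genotypes were mostly of mixed sign. Of the 7 tested genes, 2 had the same sign in all 3 runs, against 27.8% of all genes tested. These were Lrp6, with log2 ratios of Furin KO over WT of 0.14, 0.14 and 0.16 in runs 1, 2 and 3, and Sema4a, with 0.11, 0.06 and 0.21. Insr had -0.000543, -0.11 and 0.30, and Igf1r -0.02, 0.09 and 0.32. Sema4d had -0.07, 0.28 and -0.04, Ptprk 0.63, -0.01 and -0.39, and Atp6ap1 0.00539, -0.11 and -0.06. With the run as a factor in edgeR, 0 of the 7 genes passed, where 0.096% of genes tested did (0.064% higher and 0.032% lower in Furin KO).

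**Figure D3:**
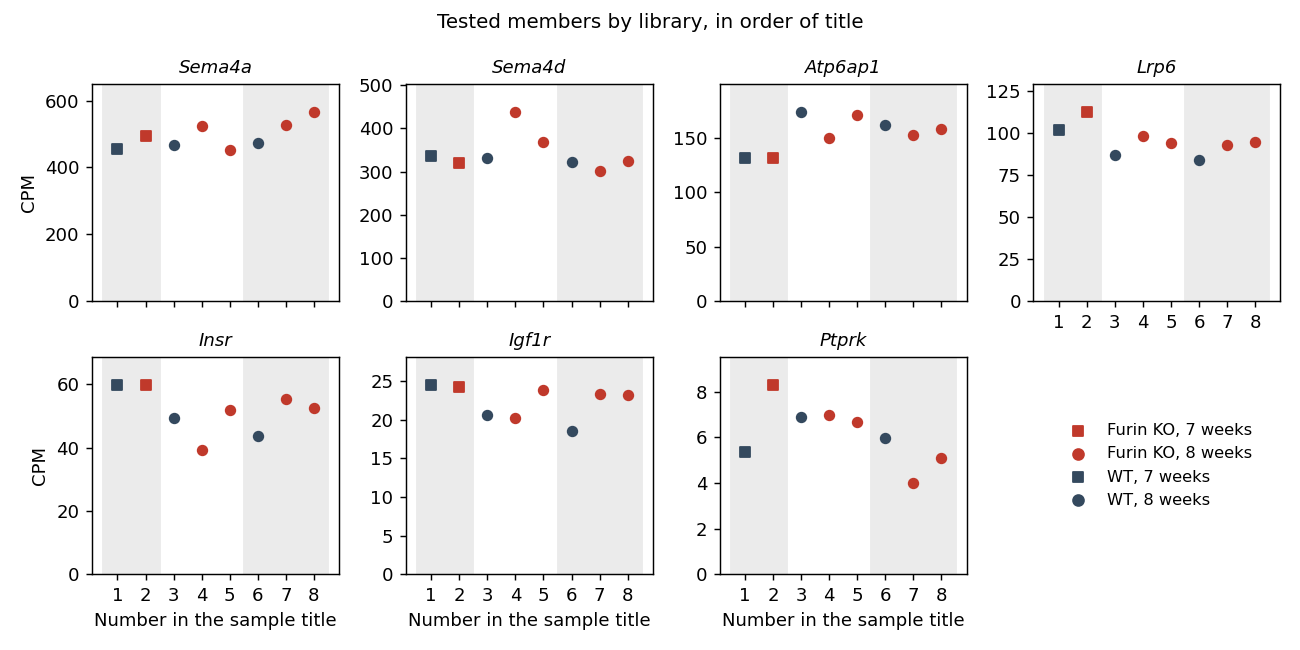
CPM of the 7 tested genes in each library (y axes from 0), in order of the number in the sample title, with Furin KO in red, WT in dark blue, 7-week libraries as squares and 8-week libraries as circles. Shading separates the 3 runs of titles. The 2 libraries of 7-week mice lie below the other 6 at Atp6ap1 and above them at Lrp6, Insr and Igf1r.

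At some of these genes the libraries fell apart by age, a comparison added after the values had been seen. Atp6ap1 had 149.7 to 173 CPM in the 6 libraries of 8-week mice, against 131 CPM in Furin KO and 131 CPM in WT at 7 weeks. Its log2 fold change, 8 over 7 weeks with genotype in the fit, was 0.31 (SE 0.09, 95% interval 0.11 to 0.50, edgeR adjusted p = 0.158). Lrp6 had 83.7 to 98.0 CPM at 8 weeks, against 113 and 102 CPM at 7 weeks (log2 fold change -0.25, edgeR adjusted p = 0.234). Insr had 39.2 to 55.3 CPM at 8 weeks, against 59.7 and 59.7 CPM at 7 weeks (-0.31, edgeR adjusted p = 0.323). Igf1r had 18.6 to 23.9 CPM at 8 weeks, against 24.2 and 24.5 CPM at 7 weeks (-0.20, edgeR adjusted p = 0.616).

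In these 4 of the 7 tested genes the ages were apart, against 16.2% of all genes tested. By edgeR 0 of the 7 passed over all genes, where 0.336% of genes did (0.08% higher and 0.256% lower at 8 weeks), and 3 (Atp6ap1, Lrp6 and Insr) had an unadjusted p under 0.05, against 13.5% of genes. DESeq2 called Atp6ap1 (DESeq2 adjusted p = 0.0366, with adjusted p of up to 0.676 over the alternatives) and limma-voom called 0 of the 7. Over the whole table DESeq2 called 370 genes by age and limma-voom called 114. The 2 libraries of 7-week mice are also the first run of titles, so age and run cannot be told apart. The number of genes called by age over the whole table in edgeR was 42. It was 0, 58, 21 and 19 without Furin KO replicates 2, 3, 4 and 5 in turn. Without WT replicates 2 and 3 it was 45 and 11. Where a 7-week library was left out, the lone one was assumed to vary like the others, so those counts are not given.

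The pathways around these proteins were followed in 8 lists with 181 genes, of which 105 were tested. 0 of the 105 passed over all genes in edgeR (0.032% of all genes tested did), 52 had log2 fold changes above 0 and 53 below, and the median was -0.01 (-0.00537). 7 had an unadjusted p under 0.05, or 6.67% of those tested, against 3.21% of all genes tested. In 5, or 4.76%, the groups were apart, against 2.9% of genes. The lists were chosen with earlier results of these data known, so these shares are not independent of those results. DESeq2 called 1 of the 105, Igfbp4, and limma-voom called 0. The genes named below were picked by lowest unadjusted p or highest mean CPM in each list. Low permutation p-values and groups that lie apart among them therefore follow in part from that choice.

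Around the insulin and IGF1 receptors, 0 of 19 tested genes passed, 7 above and 12 below 0, with a median of -0.05. Igfbp4, which binds IGFs outside the cell, had the highest mean CPM of the list. It had 631, 1021, 837, 709 and 707 CPM in Furin KO, against 525, 522 and 548 CPM in WT. All Furin KO libraries were above all WT libraries (log2 fold change 0.56, SE 0.13, edgeR adjusted p = 0.406; exact permutation p = 0.0536). It passed in 3 alternatives: DESeq2 (adjusted p = 0.00823), edgeR without a filter on low counts (adjusted p = 8.90e-05) and edgeR with the run of titles as a factor (adjusted p = 0.0166). The runs were grouped from these same counts, so the p-value with the run as a factor is not independent of that grouping. The value without a filter is below even the unadjusted edgeR p of the main fit (0.000357). That fit called 38 of 20027 genes, against 4 of 12500 in the main fit. In the other alternatives the adjusted p of Igfbp4 lay between 0.112 and 0.9999. Pik3cb, a catalytic subunit of PI3 kinase, had 11.97 ± 2.48 CPM in Furin KO and 15.2 ± 2.14 CPM in WT, and Pik3r1, a regulatory subunit, had a log2 fold change of -0.12.

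Among LRP-type receptors and their chaperones 0 of 9 passed, 6 above and 3 below 0, with a median of 0.09. Lrp5, the paralog of Lrp6, had 9.32 ± 1.27 CPM in Furin KO and 7.83 ± 1.56 CPM in WT (log2 fold change 0.25). Lrp12 had 0.21, Mylip, a ubiquitin ligase, had 0.09 and Lrp10, of the highest CPM in the list, had 0.01. Among Wnt receptors and the beta-catenin pathway 0 of 21 passed, 10 above and 11 below 0, with a median of -0.02. Kremen1, a co-receptor of the Wnt inhibitor Dickkopf that acts with Lrp6, had 60.7, 56.9, 57.4, 59.0 and 57.4 CPM in Furin KO, against 65.6, 62.8 and 74.5 CPM in WT. The groups were apart (log2 fold change -0.22, edgeR adjusted p = 0.9998; exact permutation p = 0.0179, the smallest possible). Kremen2 (0.76) and Tcf7l1 (0.58), at means under 7 CPM, overlapped between the groups, and Tcf7, the T cell factor that works with beta-catenin, had 0.02.

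Of the other semaphorins 5 of 18 were tested and 0 passed, 3 above and 2 below 0. Sema7a, a lipid-anchored semaphorin, had 40, 49, 19, 26 and 31 counts in Furin KO, against 5, 0 and 15 counts in WT. That is 1.85 ± 0.723 CPM in Furin KO and 0.395 ± 0.424 CPM in WT, with groups apart (log2 fold change 2.21, 95% interval 0.39 to 4.03, edgeR adjusted p = 0.9998; exact permutation p = 0.0179). Sema4b, of the highest CPM in the list, had -0.13 and Sema4f 0.09. Of the semaphorin receptors 0 of 8 passed, 5 above and 3 below 0, with a median of 0.06. Nrp2, the paralog of Nrp1, had 8.87, 17.0, 14.9, 8.91 and 9.49 CPM in Furin KO, against 18.1, 25.7 and 11.2 CPM in WT. In each run the Furin KO libraries were below the WT library, while the groups overlapped as a whole (log2 fold change -0.63, edgeR adjusted p = 0.9998; exact permutation p = 0.143). Of all genes tested, 27.8% had a mean difference of the same sign in all 3 runs, a looser pattern. Cd72, a Sema4d receptor known from B cells, had 141 ± 13.8 CPM in Furin KO and 134 ± 9.89 CPM in WT, in libraries where Ms4a1 was at 0. Plxna3 had 0.29, and Plxnd1 (-1.62) had at most 28 counts in any library.

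Of VPS10 receptors and trans-Golgi sorting genes 0 of 17 passed, 8 above and 9 below 0, with a median of -0.01 (-0.00918). Sorl1, a relative of Sort1, had 280.3 ± 30.0 CPM in Furin KO and 268 ± 11.2 CPM in WT (0.07). Sorcs2, another member of that family, had 27.6 ± 7.46 CPM in Furin KO and 19.6 ± 4.21 CPM in WT, with groups that overlapped (0.49, edgeR adjusted p = 0.9998; exact permutation p = 0.143). Pacs1, a sorting protein that returns FURIN to the trans-Golgi network, had -0.12, and Vps29, a retromer subunit, -0.25. Of the other receptor-type tyrosine phosphatases 0 of 7 passed, 2 above and 5 below 0, with a median of -0.09. Ptprc (CD45) had the highest CPM of them, at 3047 ± 337 CPM in Furin KO and 2993 ± 265 CPM in WT (0.03). Ptprn had 0, 0, 3, 3 and 5 counts in Furin KO, against 18, 15 and 15 counts in WT, with groups apart (-2.78, 95% interval -4.98 to -0.58, edgeR adjusted p = 0.9998; exact permutation p = 0.0179). Ptprs had -0.16 and Ptprf, also below 2 CPM in every library, -1.01.

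Of the vacuolar ATPase genes, whose pump Atp6ap1 accompanies, 0 of 20 passed, 12 above and 8 below 0, with a median of 0.02. Atp6v1c1, a subunit of the cytosolic part, had 64.0, 77.2, 76.7, 63.2 and 59.9 CPM in Furin KO, against 55.5, 57.7 and 52.7 CPM in WT. All Furin KO libraries were above all WT libraries (0.30, SE 0.12, edgeR adjusted p = 0.9998; exact permutation p = 0.0536). Tmem199, an assembly factor, had 0.32 and Tcirg1, a membrane subunit, 0.17, with groups that overlapped. Atp6v0a2, of the highest CPM in the list, had 169 ± 11.6 CPM in Furin KO and 176 ± 10.3 CPM in WT (-0.06).

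**Figure D4:**
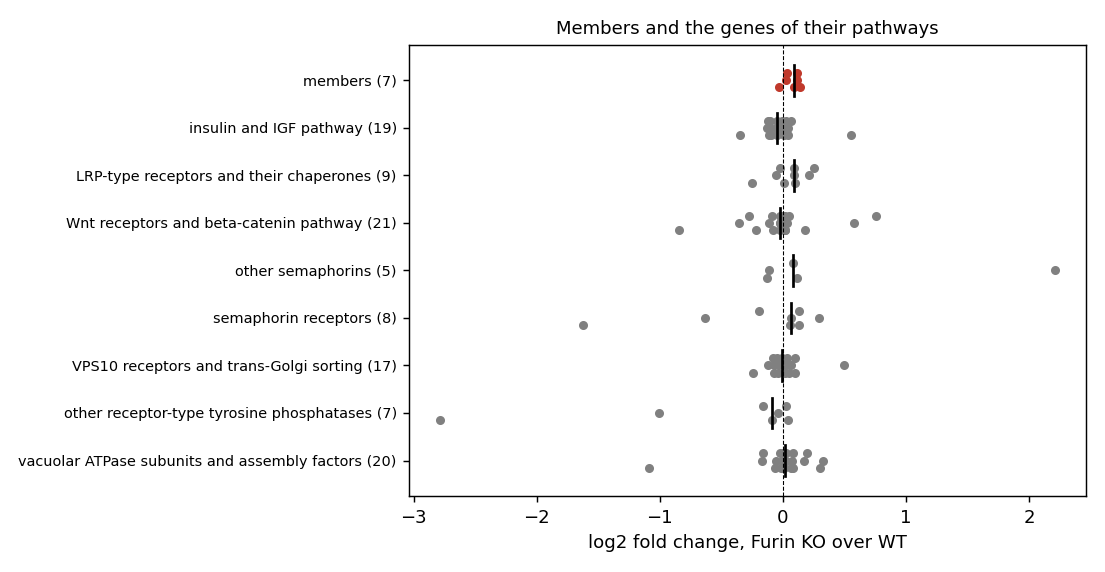
Log2 fold changes, Furin KO over WT (x axis), of the 7 tested genes of the set (red, labelled members) and of the tested genes of the 8 pathway lists (grey, number in brackets), with a bar at each median. Each median lies between -0.09 and 0.09, and the widest points, Sema7a at 2.21 and Ptprn at -2.78, belong to genes under 3 CPM.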

How the data were processed

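The authors deposited raw whole-number counts per Ensembl gene in 1 table with 1 column per sample, matched here to samples by title. The build GRCm38 and the tools STAR, Trim Galore, FastQC and DESeq2 1.24.0 appear in the submitters' processing notes. How reads were counted (program, annotation, strand, reads matching several genes) is not given in the sources used here. Symbols, positions and lengths came from GENCODE M21 (55480 of 55573 gene IDs matched), as did the coding sequences searched for sites. Amino acid sequences were not used here.

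From the deposited counts, edgeR 4.0.16 (R 4.3.3) was applied with filterByExpr on genotype, TMM scaling and a two-sided quasi-likelihood test without covariates, with Benjamini-Hochberg adjustment over the 12500 genes tested. The common biological coefficient of variation was 0.202. Single genes were also given an exact permutation test of the mean log2(CPM + 1) over 56 arrangements. Age was tested with genotype in the fit, a comparison added after values were seen. The fit was tested on simulated data. Replicate numbers follow accession order and pair no libraries. Alternatives were RLE factors or none, other count filters, DESeq2 1.42.0, limma-voom (limma 3.58.1), age or run of titles as a factor, the 8-week libraries alone, another pseudocount or length, and each library left out. The genes of the set and the lists were chosen with earlier results of these data known. In each list every gene past the threshold, the 3 of lowest unadjusted p and the 1 of highest mean CPM are named. 1 pathway gene is not reported here. Intervals on counts of 0 cover counting error only.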

Additional observations from a re-analysis of the deposited data

Results flagged for a closer look

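Dixon's test on the 5 Furin KO libraries of each of 38 genes set 1 library apart in 3 genes, and chance alone flags about 1 in 20 groups, or 1.9 here. Igf1r was at 20.22 CPM in Furin KO replicate 2, against 23.2 to 24.2 CPM in the other 4. Lrp6 was at 112.5 CPM in Furin KO replicate 1, the 7-week library, against 92.7 to 98.0 CPM in the others. Atp6v0a2 was at 148.8 CPM in Furin KO replicate 2, against 169.8 to 178 CPM. WT, with 3 libraries, was not tested in this way.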

How the results depend on the processing

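0 of the tested genes of the set passed by genotype in each of the 17 alternatives, in which the lowest adjusted p of any was 0.868, and by the permutation test in each of its 10 alternatives. Of 119 refitted fold changes of these genes, 108 kept their sign. Those that turned belonged to Insr, Sema4d, Ptprk and Atp6ap1. Ptprk had -0.17 in the 8-week libraries alone, -0.000717 in limma-voom and -0.088 to 0.16 with 1 library left out. In its permutation difference it had -0.000488 with a pseudocount of 0.5 and -0.10 to 0.13 with 1 library left out. With 1 library left out, the fold changes ran from -0.071 to 0.16 for Insr, -0.00164 to 0.14 for Sema4d and -0.13 to 0.058 for Atp6ap1, and the permutation differences from -0.080 to 0.14, from -0.0076 to 0.13 and from -0.14 to 0.061 for these 3. Likewise Lrp10 ran from -0.042 to 0.053, Tcf7 from -0.030 to 0.10 and Ptprc from -0.043 to 0.074, and Tcf7 had -0.026 in the 8-week libraries alone. By age, Sema4d ran from -0.037 to 0.17 and Ptprk from -0.53 to 0.27. The cause was not tested. Over all genes, 4 passed by genotype, against 38 without a count filter, 14 by DESeq2, 12 with the run of titles as a factor and 3 to 5 with 1 library left out. Of the pathway genes 1 (Igfbp4) passed in each of those first 3 alternatives. By age, 42 genes passed, against 278 without a count filter, 370 by DESeq2 (1 of the set, Atp6ap1) and 114 by limma-voom. With an 8-week library left out, 0 to 58 genes passed. The median level per length of the 10 genes was 2.535 CPM per kilobase by the union of exons and 3.73 by the longest transcript, which is shorter by construction. No paired analysis was possible because the labels give no replicate numbers shared between genotypes. The run of titles, a grouping taken from these data, was fitted as a factor instead. Depth limits Lrp1, Sort1 and Nrp1, with 10, 20 and 51 counts over all libraries.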
